A study of Mus musculus with 6 samples.

Results

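The histone genes of GLUTag cells were taken from a table of 54281 genes by their symbols. These are the protein-coding genes named Hist1h, Hist2h, Hist3h or Hist4h, which are replication-dependent histones, and the genes named H2af or H3f3 and H1f0, which are replacement histones. The rule found 88 genes, of which 79 are protein-coding, 67 of them replication-dependent and 12 replacement. GLUTag is a mouse enteroendocrine cell line that secretes GLP-1. The 6 libraries were of cells of a single condition, grown for 48 h in DMEM with 1 g/L glucose, GlutaMAX and 10% FBS on 0.4% Matrigel. The labels give plate 1 and passage 23 for 3 libraries and plate 2 and passage 27 for the other 3, so the plate cannot be told apart from the passage. The labels do not say what kind of plate is meant or whether the libraries of a plate came from separate cultures. Polyadenylated RNA was captured on oligo(dT) beads and sequenced from the 3′ end with an oligo(dT)-primed kit, which is designed to give one tag per transcript.

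Replication-dependent histone genes supply the histones that package new DNA in S phase. Their mRNAs are the known exception among the mRNAs of animal cells, since they end in a short stem-loop bound by the protein Slbp and normally carry no poly(A) tail. Replacement histones are made throughout the cell cycle, mostly from ordinary polyadenylated mRNAs, and are exchanged into chromatin outside replication. An oligo(dT) library is therefore expected by design to capture the replacement class and, of the other class, only transcripts that carry a tail or a stretch of A to which the primer can bind.

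The sequence around the stem-loop was read from the GENCODE M21 transcripts on GRCm38. A histone stem-loop of 16 bases, with at most 1 mismatch, lay in the first 150 bases after the coding sequence in 45 of the 50 replication-dependent models that extend at least 50 bases past it (90.0%). It was found in 1 of 9 such replacement models (11.1%), H2afx, and in 76 of 20599 protein-coding genes (0.37%). The 30 bases below hold the 14 bases before the stem-loop, in lower case, and the stem-loop, in capitals. The first 4 are the genes with the longest runs of A before it, and the others are shown for contrast, as Hist1h2ac and Hist3h2ba are high without such a run, Hist1h4i is the highest H4 gene and H2afx is the replacement gene.
Hist1h2ao: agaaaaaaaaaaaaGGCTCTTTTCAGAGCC
Hist1h2ap: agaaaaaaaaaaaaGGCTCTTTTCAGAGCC
Hist1h2ae: gtaaaaaaaacaaaGGCTCTTTTCAGAGCC
Hist1h3c: gctatttaaaaaaaGGCTCTTTTAAGAGCC
Hist1h2ac: acttcaaacccaaaGGCTCTTTTCAGAGCC
Hist3h2ba: gcccccaacccaaaGGCTCTTTTCAGAGCC
Hist1h4i: caatgctacttaaaGGCCCTTTTTAGGGCC
H2afx: cacacctccacaaaGGCCCTTTTAAGGGCC
These lie after the coding sequence at chr13:21810884-21810913 (plus strand) for Hist1h2ao, chr13:21833029-21833058 (minus) for Hist1h2ap, chr13:23570668-23570697 (minus) for Hist1h2ae, chr13:23745047-23745076 (minus) for Hist1h3c, chr13:23683477-23683506 (minus) for Hist1h2ac, chr11:58949335-58949364 (plus) for Hist3h2ba, chr13:22040966-22040995 (minus) for Hist1h4i and chr9:44335226-44335255 (plus) for H2afx. Hist1h2ao and Hist1h2ap carried the same letters, with an encoded run of 12 A directly before the stem-loop. The run was 8 A in Hist1h2ae and 7 A in Hist1h3c, and at most 5 A in the remaining 41 replication-dependent genes with a stem-loop.

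A run of 8 or more A anywhere in the model was held by 7 of the 67 replication-dependent genes (10.4%), by 2 of the 12 replacement genes (16.7%) and by 26.8% of all 21720 protein-coding genes, whose models differ in length. Within the first 150 bases after the coding sequence it was held by 3 of 50 replication-dependent models (6.0%), by 1 of 9 replacement models (11.1%), H2afy with 10 A, and by 2.84% of all. The longest runs further along lay in Hist1h2ac (15 A), H3f3b (12 A) and Hist1h2be (11 A). Below, each such run is in capitals with its neighbouring bases.
Hist1h2ac: cctaggagAAAAAAAAAAAAAAAgttctat
H3f3b: tttcctttAAAAAAAAAAAAgtaaacc
Hist1h2be: agacctggAAAAAAAAAAAtcagttc
The coordinates are chr13:23682647-23682676 for Hist1h2ac, chr11:116022946-116022972 for H3f3b and chr13:23584708-23584733 for Hist1h2be, all on the minus strand and after the coding sequence. In Hist1h2ac the run begins at base 1281 of a model of 2482 bases that continues 2010 bases past the stem-loop.

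A polyadenylation hexamer, AATAAA or ATTAAA on the transcribed strand, lay in the last 50 bases of 17 of 50 replication-dependent models (34.0%), 7 of 9 replacement models (77.8%) and 75.3% of all protein-coding models. The windows below, with the hexamer in capitals, show the highest replacement gene and a pair of replication-dependent genes that reach past the stem-loop to such a signal.
H2afz: ctctgcttactaATTAAAcagtgcatctgt
Hist3h2ba: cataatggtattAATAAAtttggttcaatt
Hist1h2ae: cccagcttctccAATAAAtgggtcaatttt
They lie at chr3:137866885-137866914 (plus) for H2afz, chr11:58949495-58949524 (plus) for Hist3h2ba and chr13:23570527-23570556 (minus) for Hist1h2ae. Hist3h2ba and Hist1h2ae are among the higher genes of their class. Hist1h2ao and Hist1h2ac, the highest of that class, held no hexamer in their last 50 bases. Hist1h1t held one and had at most 2 counts in a library. A match of letters is a description of the model and does not show where the tags of a gene began.

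Library totals ran from 21399987 to 36488198 counts, with a mean of 27.3 ± 5.76 M (SD, n = 6). Levels are counts per M counts of the library, written CPM. Since the kit counts tags near the priming site and not fragments along the transcript, CPM values of different genes are compared without a length term. Whether transcripts with an encoded run of A, as in H3f3b, H2afy and Hist1h2ac, were primed there as well as at the tail was not tested, so a difference between genes is one of captured tags. The plate 1 libraries are replicates 1, 2 and 3, and the plate 2 libraries are named by their total (lowest, middle, highest), because their columns could not be matched to replicate numbers. The middle-total library of plate 2 stood apart over the 5031 genes whose mean reached 30 CPM. In it 354 of them were below 0.5 times the mean of the other plate 2 libraries, compared with 2 genes for each of those. By the same comparison 49 genes were 2-fold higher in the highest-total library, compared with 3 in the lowest-total and 2 in the middle-total library. Of the 8 enteroendocrine markers all were found, among them Gcg at 3416 ± 771 CPM (SD, n = 6). The summed level was 0.584 to 1.85 CPM over 4 enterocyte markers, 4.71 to 7.06 CPM over 4 fibroblast markers, of which Col3a1 was at 0, and 0.333 to 1.07 CPM over Ptprc and Cd68. Of the endothelial markers, Cdh5 reached at most 3 counts while Pecam1 had 39.6, 58.8 and 99.8 CPM on plate 1 and 23.7, 3.41 and 32.7 CPM on plate 2.

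The replacement genes were together at 5426 ± 638 CPM (SD, n = 6) and the replication-dependent genes at 1136 ± 391 CPM, or 0.543% and 0.114% of all counts. The ratio of the sums was 3.82, 2.72 and 4.07 in the plate 1 libraries and 6.30, 5.24 and 11.6 in the lowest-, middle- and highest-total libraries of plate 2. In all 6 libraries the 12 replacement genes outweighed the 67 replication-dependent genes. More than 3 counts in every library were found for 9 of 12 replacement genes and 42 of 67 replication-dependent genes. Of the replacement genes, 7 had a mean of at least 100 CPM, 2 had 10 to 100 CPM and 3 were below 1 CPM. Of the replication-dependent genes, 3 had at least 100 CPM, 5 had 10 to 100 CPM, 17 had 1 to 10 CPM and 42 were below 1 CPM. The median of the gene means was 197 CPM in the replacement class and 0.561 CPM in the replication-dependent class.

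**Figure D1:**
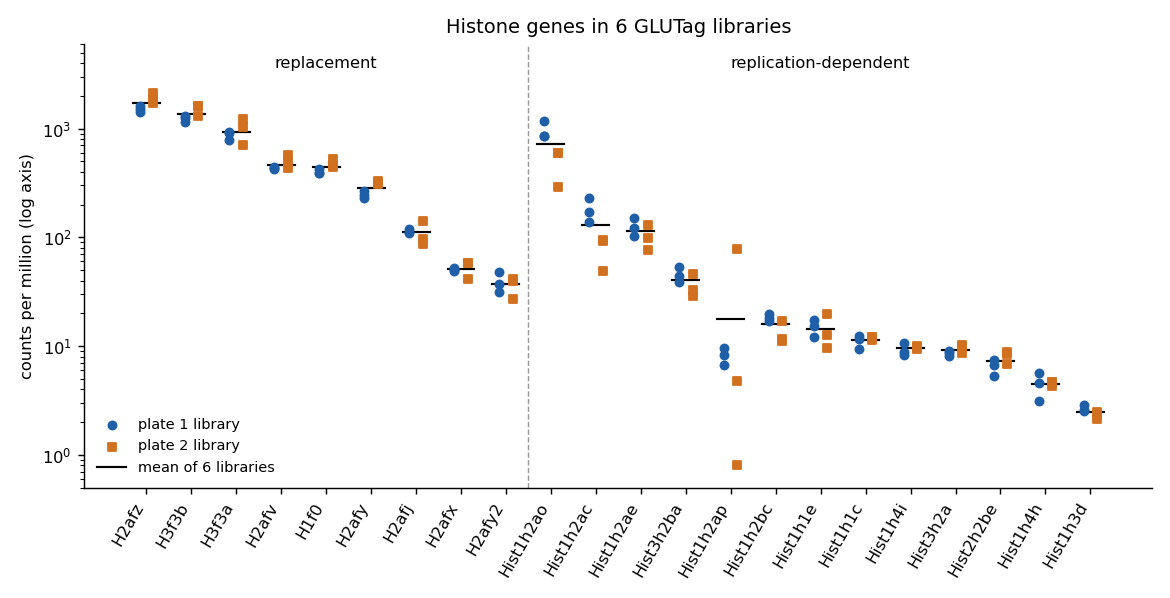
CPM on a log axis for the 9 replacement genes with over 3 counts in every library and the 12 highest replication-dependent genes with Hist1h3d, the highest H3 gene. Circles are plate 1 libraries, squares plate 2 libraries and bars the mean of 6; Hist1h2ao is the only replication-dependent gene here with a mean above 200 CPM, and Hist1h2ap has 1 library at 77.3 CPM and the others below 10 CPM.

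The highest histone gene was H2afz (chr3:137864487-137866922, plus strand), which encodes H2A.Z, a variant placed at promoters by the Srcap and Ep400 complexes. Its level was 1518, 1412 and 1613 CPM on plate 1 and 1725, 1935 and 2146 CPM on plate 2. The mean of 1725 ± 274 CPM (SD, n = 6) was rank 45 of all 54281 genes, and the plates did not overlap in CPM. H2afv (chr11:6427229-6444443, minus), which encodes the other H2A.Z protein, had 446, 427 and 438 CPM on plate 1 and 491, 566 and 434 CPM on plate 2, with overlapping plates. H2afz was the higher of the pair in 6 of 6 libraries, by 1.87 ± 0.22 on the log2(CPM + 1) scale (SD, n = 6), or 3.67-fold. The exact two-sided sign-flip permutation test gave p = 0.03125 and an adjusted p of 0.03125 over 5 pairs, which is the smallest p that 6 libraries can give.

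H3f3b and H3f3a encode the same replacement H3 protein, which is deposited at active genes by Hira and at heterochromatin by Daxx with Atrx. H3f3b (chr11:116021912-116027962, minus) had 1263, 1160 and 1311 CPM on plate 1 and 1623, 1304 and 1598 CPM on plate 2. H3f3a (chr1:180800832-180813943, minus) had 912, 792 and 937 CPM on plate 1 and 1036, 703 and 1230 CPM on plate 2. The plates overlapped for both genes, and the lowest value of H3f3a was in the middle-total library of plate 2. H3f3a was below H3f3b in 6 of 6 libraries, by a mean log2 ratio of -0.57 ± 0.18 (SD, n = 6, exact sign-flip permutation test, adjusted p = 0.03125), or 1.48-fold. Of the 2811 stretches of 31 bases in the H3f3a model, 569 also occur in another gene, as do 337 of 2484 in H3f3b, but none in the last 200 bases of either.

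H1f0 (chr15:79028450-79030504, plus), the linker histone of slowly cycling and differentiated cells, had 423, 392 and 392 CPM on plate 1 and 525, 446 and 460 CPM on plate 2, a mean of 440 ± 50.2 CPM (SD, n = 6). Its range overlapped that of H2afv, its neighbour in the order of levels. Of the replication-dependent H1 genes, Hist1h1e had 14.5 ± 3.73 CPM and Hist1h1c 11.5 ± 1.08 CPM. H1f0 exceeded Hist1h1c in 6 of 6 libraries by 5.14 ± 0.14 on the log2(CPM + 1) scale (SD, n = 6, exact sign-flip permutation test, adjusted p = 0.03125), or 35.2-fold. Because the library captures tailed transcripts, the direction of this difference was expected by design, and its p adds little. The ratio is one of captured tags and not of all H1 mRNA.

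H2afy and H2afy2 encode the macroH2A proteins, which carry a large extra domain and are found on silent chromatin. H2afy had 266, 245 and 229 CPM on plate 1 and 310, 318 and 331 CPM on plate 2, with no overlap in CPM. H2afy2 had 37.2, 31.2 and 48.0 CPM on plate 1 and 41.3, 27.0 and 39.9 CPM on plate 2, with overlap. H2afy was higher by 2.90 ± 0.41 on the log2(CPM + 1) scale (SD, n = 6, exact sign-flip permutation test, adjusted p = 0.03125), or 7.45-fold. Aifm2 overlaps H2afy2 on the opposite strand and was at 11.0 CPM.

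H2afx, which encodes the H2A variant phosphorylated at DNA breaks, had 49.3, 50.2 and 52.5 CPM on plate 1 and 58.4, 41.0 and 57.9 CPM on plate 2. H2afj had 110, 120 and 111 CPM on plate 1 and 97.1, 141 and 87.1 CPM on plate 2. H2afx was below H2afj in 6 of 6 libraries, by a mean log2 ratio of -1.08 ± 0.42 (SD, n = 6, exact sign-flip permutation test, adjusted p = 0.03125), or 2.12-fold. In the middle-total library of plate 2, H2afx was at its lowest and H2afj at its highest. H2afx is the replacement gene with a stem-loop, and its model runs 822 bases past it and holds ATTAAA in its last 50 bases. Any H2afx transcripts that end at the stem-loop without a tail would not be captured. The ratio to H2afj is therefore one of captured tags and not of all mRNA. The remaining replacement genes, H2afb1, H2afb2 and H2afb3 on the X chromosome, encode short H2A variants of the testis. H2afb1 and H2afb2 were at 0 in every library and H2afb3 had a mean of 0.0156 CPM, where 0 is read as at most 3 counts, which is 0.0822 to 0.140 CPM across the libraries.

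Of the replication-dependent families, H2A had 1002 ± 384 CPM in 18 genes, H2B 70.9 ± 10.3 CPM in 18 genes, H1 29.1 ± 5.11 CPM in 6 genes, H4 24.7 ± 0.966 CPM in 13 genes and H3 8.81 ± 0.951 CPM in 12 genes (SD, n = 6 each). The nucleosome holds the 4 core families in equal number, whereas the captured counts were 52.7 to 191 times as many for H2A as for H3 (115 ± 48.0, SD, n = 6). In the replacement class H2A had 2675 ± 332 CPM and H3 had 2311 ± 356 CPM. By position, the 54 genes on chromosome 13 had 1073 ± 386 CPM, the 2 on chromosome 11 had 49.6 ± 8.98 CPM, the 10 on chromosome 3 had 10.3 ± 2.06 CPM and Hist4h4 on chromosome 6 had 3.17 ± 0.416 CPM.

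**Figure D2:**
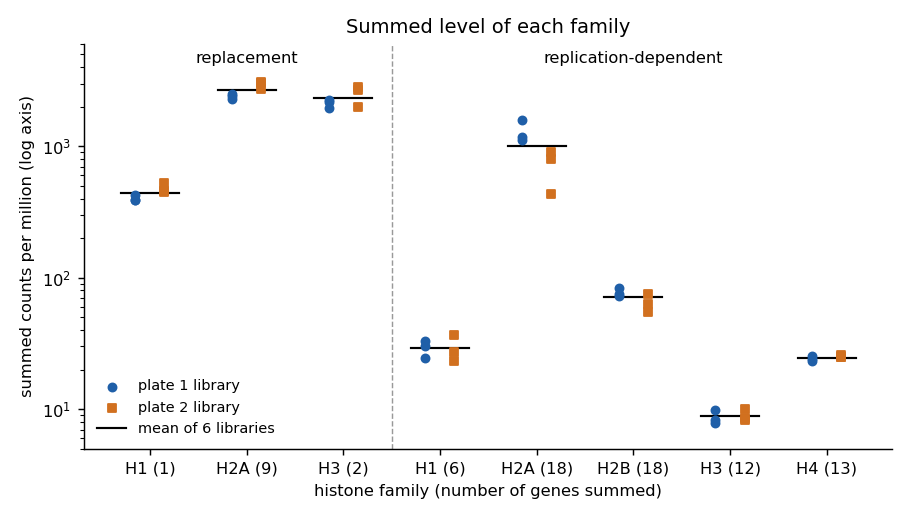
Summed CPM of each histone family on a log axis, with the number of genes summed in brackets; circles are plate 1 libraries, squares plate 2 libraries and bars the mean of 6. Replication-dependent H2A, between 435 and 1572 CPM, stands above the other replication-dependent families, none of which exceeds 84.2 CPM in a library.

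Most of the H2A counts were assigned to Hist1h2ao (chr13:21810465-21810944, plus strand). It had 858, 1167 and 848 CPM on plate 1 and 596, 592 and 291 CPM on plate 2, with every plate 2 library below every plate 1 library. Its mean of 725 ± 301 CPM (SD, n = 6) was rank 173 of all genes and 62.3 ± 6.21% of the replication-dependent counts. Of the 450 stretches of 31 bases in its model, 422 are also in Hist1h2ap (chr13:21833026-21833507, minus), so the assignment between these genes rests on few bases. Stretches of Hist1h2ao occur in 25 other genes in all, and 332 of the 455 stretches of Hist1h2ag are also in it. The assignment among the H2A genes was not tested. Hist1h2ap had 6.69, 8.34 and 9.61 CPM on plate 1 and 0.812, 77.3 and 4.74 CPM on plate 2. Its mean was 17.9 CPM, and 6.04 CPM without the middle-total library of plate 2, which stood apart, and there Hist1h2ap took 11.6% of the sum of both genes, compared with 0.136% to 1.60% in the other 5 libraries. The sum of both was 865, 1176 and 858 CPM on plate 1 and 597, 669 and 296 CPM on plate 2.

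Hist1h2ac (chr13:23681467-23683948, minus), the next gene, had 171, 231 and 139 CPM on plate 1 and 93.7, 92.0 and 49.5 CPM on plate 2, also without overlap. The ratio of Hist1h2ao to Hist1h2ac stayed between 5.00 and 6.44 in the 6 libraries while each gene varied by more than 4 times between its lowest and highest library. Of the 2452 stretches of 31 bases in the Hist1h2ac model, 301 are also in Hist1h2ao, but no such stretch in its last 200 bases is shared with any gene. Whether tags of Hist1h2ao transcripts were assigned to Hist1h2ac was not tested. Hist1h2ae had 123, 150 and 103 CPM on plate 1 and 99.1, 131 and 76.2 CPM on plate 2, with overlap. Of the 674 stretches in its model 323 also occur in another gene, but none in its last 200 bases.

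**Figure D3:**
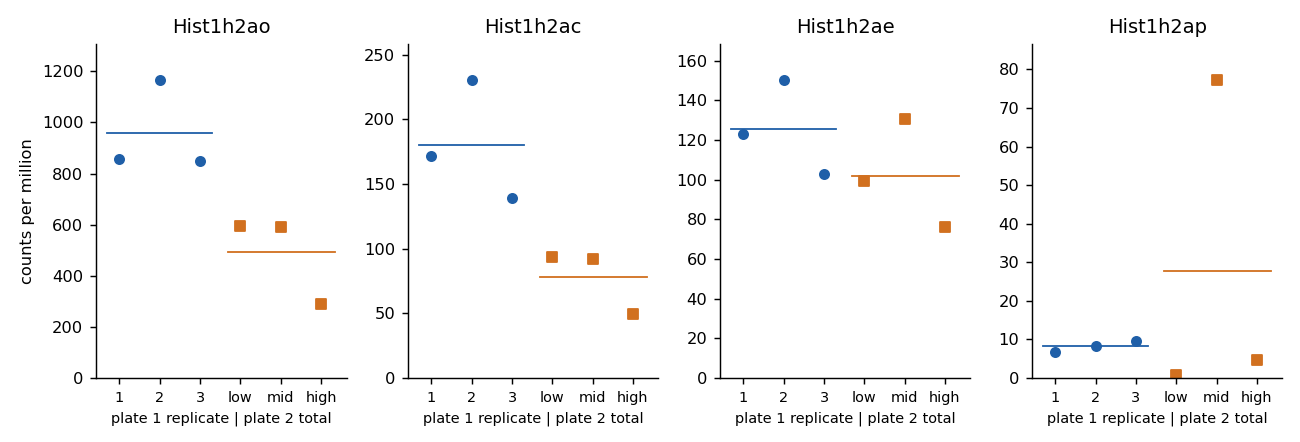
CPM, on axes that start at 0, of the 4 H2A genes Hist1h2ao, Hist1h2ac, Hist1h2ae and Hist1h2ap in each library, with the mean of each plate as a line. Hist1h2ao and Hist1h2ac are lower in every plate 2 library (squares) than in every plate 1 library (circles), and Hist1h2ap is high in the middle-total library of plate 2 alone.

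Hist1h2ao, Hist1h2ap, Hist1h2ac and Hist1h2ae, the replication-dependent H2A genes with the 4 highest means, together held 85.5 ± 4.98% of the replication-dependent counts (SD, n = 6). These genes were singled out after their values were seen. Hist1h2ap is among them through the middle-total library of plate 2, without which its mean was 6.04 CPM and that of Hist3h2a 8.88 CPM, and Hist3h2a was the higher of these in 4 of 6 libraries. Without them the other 63 genes summed to 156, 148 and 161 CPM on plate 1 and 149, 154 and 129 CPM on plate 2, and the replacement class was 36.7 ± 7.11 times as high. The 7 replication-dependent genes with a run of 8 or more A summed to 1005 ± 385 CPM and the other 60 genes to 131 ± 9.56 CPM. The 7 include the same 4 H2A genes, which alone summed to 986.5 ± 383 CPM, so this split largely repeats the one above. The rest of the 7 are Hist1h2bc (15.8 CPM), Hist1h2be (2.23 CPM) and Hist1h1d (0.594 CPM).

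Among the 45 replication-dependent genes with a stem-loop, the 4 genes with 7 or more A in a row before it had a median of 65.8 CPM and a range of 2.44 to 725 CPM. The 14 genes with 4 to 6 A had a median of 0.570 CPM (0 to 11.5 CPM) and the 27 genes with 2 or 3 A had a median of 0.844 CPM (0 to 129 CPM). The ranges overlapped, and Hist1h3c with 7 A was at 2.44 CPM while Hist1h2ac and Hist3h2ba with 3 A were at 129 and 40.5 CPM. The 4 genes share sequence, as 3 of them are H2A genes and a pair is nearly identical, so they are not independent points and no test was made. Hist1h2be held the run of 11 A printed above and was at 2.23 ± 0.434 CPM (SD, n = 6).

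**Figure D4:**
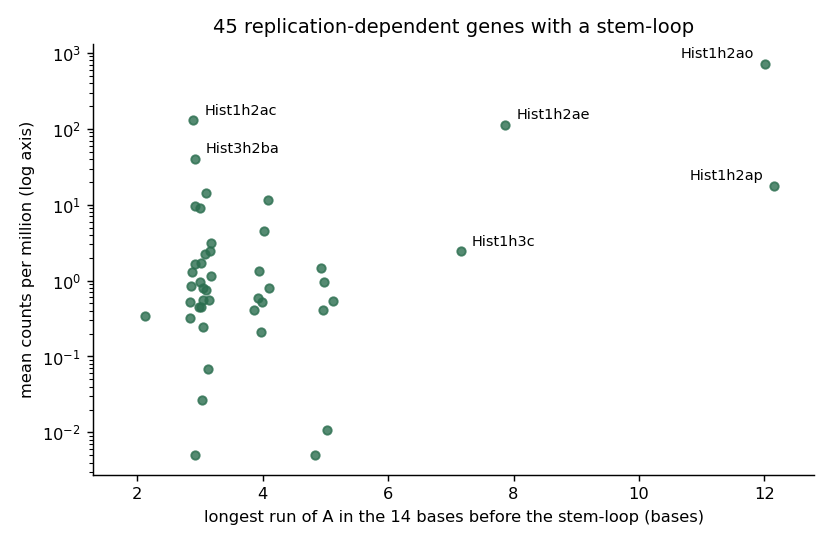
Mean CPM on a log axis of the 45 replication-dependent genes with a stem-loop against the longest run of A in the 14 bases before it, with points spread sideways for visibility and genes at 0 drawn at the lowest level. Hist1h2ao (12 A) and Hist1h2ae (8 A) lie above 100 CPM, whereas Hist1h2ap (12 A) lies at 17.9 CPM, or 6.04 CPM without the middle-total library of plate 2, and Hist1h3c (7 A) at 2.44 CPM, in the range of the genes with at most 5 A, most of which lie below 10 CPM.

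The replication-dependent genes were also described by the extent of their annotated model, without a test. Over 3 counts in every library were found for 3 of 15 replication-dependent genes whose model stops at or near the stop codon, 15 of 22 whose model ends within 100 bases after the stem-loop, 20 of 23 whose model runs further and 4 of 7 in which no stem-loop was found after the coding sequence. The summed level was 3.62 ± 0.855 CPM for the first of these groups, 764 ± 299 CPM for the second, of which Hist1h2ao was 725 CPM, 343 ± 90.5 CPM for the third and 25.9 ± 2.71 CPM for the last (SD, n = 6). The median share of stretches of 31 bases that also occur in another gene was 86.2%, 65.1%, 29.4% and 49.6% in these groups, in the same order. A tag that falls past the end of a model is not counted for that gene, and what part this or shared sequence has in the low values was not tested.

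Of the H2B genes, Hist3h2ba was highest, with 39.1, 43.8 and 52.9 CPM on plate 1 and 32.5, 45.9 and 28.8 CPM on plate 2. Hist1h2bc, whose model is spliced and holds no stem-loop, had 19.9, 16.9 and 18.3 CPM on plate 1 and 17.0, 11.0 and 11.7 CPM on plate 2, and Hist2h2be had 7.25 ± 1.25 CPM (SD, n = 6). The plates overlapped for these 3 genes. Of the H4 genes, Hist1h4i had 9.53 ± 0.888 CPM and Hist1h4h 4.52 ± 0.831 CPM. Hist1h3d was the highest H3 gene at 2.49 ± 0.248 CPM, and Hist3h2a had 9.12 ± 0.875 CPM. These levels are far below that of Cenpa, the centromeric H3, which lies outside both classes and had 228 ± 46.8 CPM. Replication-dependent mRNAs normally carry no tail, so this is a difference in captured tags and not in all mRNA.

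Some of these values are uncertain as to the gene. Hist1h1e and Hist1h2be overlap on the same strand, and every stretch of 31 bases in the last 200 bases of Hist1h1e is shared. Hist3h2a overlaps Trim17 on the same strand. In the Hist2 cluster on chromosome 3, all 1795 stretches of 31 bases in the model of Hist2h3c1 also lie in the processed transcript Gm20634, which was at 7.82 CPM, and Hist2h3c1 itself was listed at 0. Hist2h2aa2 and Hist1h2ba were also at 0 in every library. Hist2h2aa1 ranged from 0 to 2.23 CPM, with its highest value in the middle-total library of plate 2, and shares 499 of 556 stretches with Gm20634.

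The plates were compared with edgeR's quasi-likelihood test to describe how far the histone levels differed between them. Of 15669 genes tested, 29 passed an adjusted p of 0.05 (0.185%), and of the 51 histone genes tested, 42 replication-dependent and 9 replacement, edgeR called 0. At an unadjusted p under 0.05, 8 histone genes were lower on plate 2 and 0 were higher, where 7.95% of all genes tested were lower and 8.13% were higher. These 8 were all replication-dependent, with 5 H2A genes (Hist1h2ac, Hist1h2ao, Hist1h2ae, Hist1h2ag, Hist1h2af), the H2B genes Hist1h2bc and Hist3h2ba and the H4 gene Hist1h4c. This count depended on the scaling, and the H2A genes entered it as separate values. Scaled to the total alone, 4 replication-dependent genes passed, 3 of them lower, and 2 replacement genes passed, 0 of them lower, where 5016 of all genes passed, 356 of them lower. With the replication-dependent H2A genes summed to a single value, 3 other histone genes were lower and 0 were higher. The H2A sum was itself lower on plate 2, with a log2 change of -1.12 ± 0.3 (SE). Its edgeR unadjusted p was 0.00697 and its adjusted p 0.158. limma-voom called 0 histone genes (0.191% of all genes), and at an unadjusted p under 0.05 it had 9 lower on plate 2, where 8.49% of all genes were lower, while DESeq2 called Hist1h2ac, Hist1h2ao and Hist1h2bc (3.80% of all genes with an adjusted p). Without the middle-total library of plate 2 edgeR called 1911 genes, 1244 of them lower on plate 2 (7.83% of those tested), of which Hist1h2bc, Hist3h2ba, Hist1h2af, Hist1h2ae and H2afj are histone genes, all lower on plate 2. Without any other library it called 0 to 9 genes and 0 histone genes. Of the markers of other cell types, Pecam1 was also lower in every plate 2 library, with a log2 change of -2.0 ± 0.86 (SE, edgeR adjusted p = 0.349), and its part in the histone values was not tested.

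For Hist1h2ac the log2 change from plate 1 to plate 2 was -1.48 ± 0.31 (SE), with an edgeR adjusted p of 0.118, and adjusted p lay between 6.51e-06 and 0.382 over the alternatives. For Hist1h2ao it was -1.23 ± 0.30 (SE), with an edgeR adjusted p of 0.142 (0.000288 to 0.409 over the alternatives). For Hist1h2bc it was -0.74 ± 0.18 (SE), with an edgeR adjusted p of 0.119 (0.0133 to 0.426). These values kept their sign in every alternative. Hist1h2ap had a log2 change of 1.5 ± 1.63 (SE), which was -1.83 without the middle-total library of plate 2. With Hist1h2ao and Hist1h2ap summed to a single value the log2 change was -1.16 ± 0.32 (SE).

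The median log2 change was -0.26 over the 42 replication-dependent genes and -0.08 over the 9 replacement genes, beside 0.03 over all genes tested. The log2 change was below 0 for 29 of 42 and 6 of 9 genes, and for 45.9% of all genes tested. Scaled to the total alone, these medians were 0.0 and 0.19 beside 0.30 over all genes, and 21 of 42 and 2 of 9 genes were below 0, as were 19.5% of all genes tested. The replacement genes lay between -0.37 (H2afy2) and 0.11 (H2afy), with -0.02 ± 0.11 (SE) for H1f0 and 0.09 ± 0.12 for H2afz. In CPM over the library total, every plate 2 library was below every plate 1 library for 7 of the 42 replication-dependent genes and 0 of the 9 replacement genes, compared with 4.00% of all genes tested. Every plate 2 library was above every plate 1 library for 7 and 3 genes, respectively, compared with 35.2% of all genes tested. The scaling matters here, because the median gene changed by 0.30 (log2) between plates when scaled to the total and by 0.03 with TMM, edgeR's trimmed mean scaling.

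**Figure D5:**
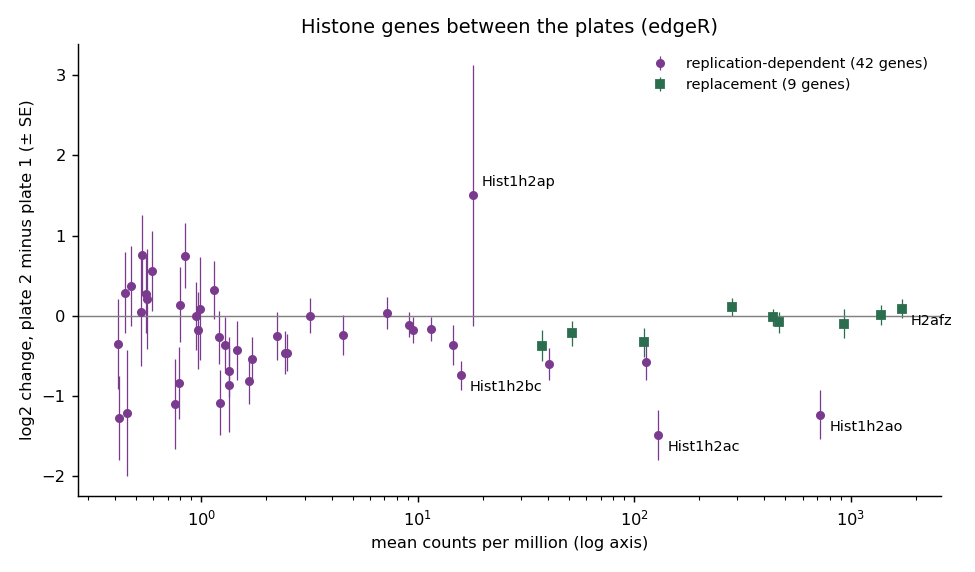
Log2 change from plate 1 to plate 2 with its standard error (edgeR) against mean CPM on a log axis, for 42 replication-dependent genes (circles) and 9 replacement genes (squares). The replacement genes lie between -0.37 and 0.11, Hist1h2ac and Hist1h2ao lie at -1.48 and -1.23, and no gene passed the adjusted threshold.

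The class sums moved in opposite directions in CPM over the total. The replication-dependent sum was 1427 ± 242 CPM on plate 1 and 844 ± 261 CPM on plate 2, and the replacement sum was 4928 ± 264 and 5924 ± 452 CPM (SD, n = 3 each). Neither pair of ranges overlapped. With TMM the replication-dependent ranges remained apart (1571 ± 308 and 771 ± 243), whereas the replacement sums were 5404 ± 157 and 5398 ± 373 and overlapped. The other 63 replication-dependent genes, without the 4 H2A genes named above, were at 155 ± 6.62 and 144 ± 13.3 CPM over the total with overlap, and at 170 ± 2.95 and 131 ± 13.0 with TMM without overlap.

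Genes that make, process or place histones were examined from a list of 32, all of which had over 3 counts in every library. Of 11 genes for transcription and 3′ end processing of histone mRNA, Slbp, the stem-loop binding protein, had 158, 143 and 152 CPM on plate 1 and 228, 203 and 245 CPM on plate 2, and Zfp473, which interacts with the U7 processing complex, was the lowest at 2.16 ± 0.414 CPM. Of 20 chaperone and exchange genes, the highest were Dek (784 ± 92.3 CPM), Npm1 (569 ± 82.1 CPM) and Atrx (297 ± 44.4 CPM), and the lowest were Srcap (5.16 ± 1.87 CPM) and Hira (12.1 ± 2.76 CPM). Atrx and its partner Daxx (54.1 ± 6.91 CPM) place the replacement H3 at heterochromatin. Asf1a and Asf1b, which hand over H3 with H4, had 41.3 ± 6.99 and 59.5 ± 6.89 CPM, and Chaf1a and Chaf1b, the subunits that deposit H3 behind the replication fork, had 63.5 ± 11.8 and 50.0 ± 11.7 CPM (SD, n = 6).

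Between plates edgeR called 0 of these 32 genes. At an unadjusted p under 0.05, Slbp had a log2 change of 0.31 ± 0.11 (SE), Hjurp, the Cenpa chaperone, 0.29 ± 0.12 and Znhit1, of the Srcap complex, -0.41 ± 0.14, where 8.13% of all genes tested were higher and 7.95% lower. Of 13 S phase genes edgeR also called 0, and Mcm2 (0.28 ± 0.11), Mcm6 (0.46 ± 0.13) and Rrm1 (0.36 ± 0.11) were higher on plate 2 at an unadjusted p under 0.05. The median log2 change was 0.19 over the S phase list, 0.11 over the processing list and -0.03 over the chaperone list, beside 0.03 over all genes tested. The replication-dependent H2A values that were lower on plate 2 stood beside these S phase values, and what part the cell cycle has in the histone values was not tested.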

How the data were processed

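The authors trimmed reads with Trim Galore 0.6.4, assigned them with Salmon 1.5.1 to GENCODE M23 transcripts of GRCm38 with genome decoys, switching off the length correction, and used Tximeta for sums per gene. What they deposited are expected counts, unnormalized estimates that need not be whole. They were divided by the library total for CPM, and rounded for edgeR 4.0.16 and DESeq2 1.42.0. Symbols and models come from GENCODE M21 (GRCm38), where 54107 of 54281 identifiers matched. For each gene the coding transcript with most bases after its coding sequence was used. Sharing was counted over stretches of 31 bases with the transcripts of all other genes. As a check for a library deposited in duplicate, pairs of libraries were compared by chi-square, which was at least 10.9 per gene, and none was merged. A count of 0 allows 3 counts, which covers counting error only.

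The plates were compared by edgeR (TMM, filterByExpr, robust quasi-likelihood test, Benjamini-Hochberg adjustment) with limma 3.58.1 (voom) and DESeq2 as alternatives. Pairs of genes were tested on log2 of CPM + 1 within libraries by exact sign-flip permutation. No label says that the libraries of a plate came from separate cultures, so p-values measure only the spread between these libraries, which may be technical. The fits were tested on data simulated for the plate comparison, where the false calls of DESeq2, but not those of edgeR or limma-voom, exceeded the threshold. Other scalings, filters and pseudocounts and the omission of each library were tried. The members and gene lists were chosen with earlier results of these data known. Genes named are the replacement genes with over 3 counts in every library, the 12 highest replication-dependent genes and the highest of each family, members past the threshold between plates, and the 3 highest, 3 lowest and 9 chosen genes of the list of 32, with others named where a count or a shared sequence turns on them, after their values were seen. R 4.3.3 and Python 3.11.15 were used.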

Additional observations from a re-analysis of the deposited data

Results flagged for a closer look

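Each histone gene with a mean of at least 10 counts, both class sums and the library totals were examined for a library far from the other 5, which chance gives in about 1 of 20 groups. Of 55 values examined, 2 were found. Hist1h2ap was at 77.3 CPM in the middle-total library of plate 2, and between 0.812 and 9.61 CPM in the others, so that its mean was 17.9 CPM with that library and 6.04 CPM without it. Hist1h1c was at 9.41 CPM in plate 1 replicate 2 and between 11.5 and 12.4 CPM in the others.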

How the results depend on the processing

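The 5 pair differences had the same sign in all 6 libraries at pseudocounts of 0.1 and 5 CPM, which alone sets p to its smallest value, and as ratios within a library they hardly depend on scaling. Without the 47 replication-dependent genes that share a stretch of 31 bases in their last 200 bases, the class summed to 335 CPM and the replacement class was 17.8 times as high. Without the 4 H2A genes these values were 149 CPM and 36.7. Without the 7 genes with a run of 8 or more A, which include those 4, they were 131 CPM and 41.9. Both sets were chosen after seeing the data. At 1 CPM in every library, 19 replication-dependent genes were detected. Between plates, DESeq2 called 529 genes and 3 replication-dependent genes, the total as scaling 1482 and 1 (Hist1h2ac), and no filter 545 and 2 (Hist1h2bc and Hist3h2ba). The share of calls that were lower on plate 2 was 93.1% with edgeR, 75.4% with DESeq2, 53.2% with no filter and 4.8% with the total as scaling. Leaving out a library gave 0 to 1911 genes, 0 to 4 replication-dependent genes and 0 to 1 replacement genes. The 1911 were without the middle-total library of plate 2, with Hist1h2bc, Hist3h2ba, Hist1h2af, Hist1h2ae and H2afj called, and each other omission gave at most 9 genes, with 0 called without plate 1 replicate 1 and without the lowest-total library of plate 2. The cause was not tested. The columns of both plates carry the numbers 1 to 3, which no label describes as pairs, and deviations from the plate means correlated by 0.02, 0.02 and 0.08 between columns of the same number, not always best with their own number. With these numbers as a replicate block, chosen after seeing the data, edgeR called 5 genes and 0 histone genes. Depth limits genes below 0.5 CPM, a level that stands for about 10.7 counts in the shallowest library.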
